A study of Homo sapiens with 34 samples.

Results

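LNCaP, an established line of human prostate adenocarcinoma cells from a lymph node metastasis, was compared on a surface coated with amorphous calcium phosphate (ACP) and on uncoated plastic, both in control medium. The comparison rests on 4 of the 34 libraries of the series, those labelled LNCaP with ACP coating and control medium (2 libraries) and LNCaP on plastic with control medium (2 libraries). They were chosen by these labels alone and by no measured value. The series asks how a calcium phosphate surface, used as a stand-in for bone mineral, changes prostate cells, and it holds poly(A)-selected RNA of 4 lines (RWPE, LNCaP, VCaP and MDAPCa2a).

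Both groups had the same RPMI medium with 10% fetal bovine serum, glucose, HEPES and pyruvate, and neither had androgen added or serum stripped. Per the treatment protocol, cells of both groups were passaged from continuous cultures and grown for 4 days with a medium change on day 2. The time label differs, since it gives day 4 for ACP and continuous culture for plastic. In the 4 lines the plastic control columns also carry names of another form than all other columns. The surface, the labelled time and any difference in how the libraries were made cannot be told apart. LNCaP is a single line, and the labels do not say whether the replicates came from separate cultures, so p-values measure the spread between these libraries, which may be technical. In such bulk RNA, fewer cells of a kind and less RNA per cell cannot be told apart either.

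LNCaP cells are luminal in character, and in full serum they secrete kallikreins under the control of the androgen receptor. Bone metastases of prostate cancer meet a matrix of mineral and collagen. Cells answer altered nutrient supply through programs with known switches, among them ATF4 for amino acids and SREBP2 for sterols.

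The 4 libraries held 25.7 M to 44.8 M reads assigned to genes. Values below are CPM, read counts scaled to a common library size with TMM factors over the 10 LNCaP libraries, and fold changes are log2 of ACP over plastic with their standard error (SE). Luminal markers were high and basal markers low, which sets LNCaP apart from basal cells but was not used to tell it from the other cancer lines. The 18 luminal markers, KRT8, KRT18 and HOXB13 among them, summed to 5909 and 7904 CPM on ACP and to 7648 and 7452 CPM on plastic, against 14.5, 62.1, 37.7 and 58.3 CPM for the 14 basal and keratinocyte markers. The 17 lymphoid and myeloid markers summed to 8.35 and 37.1 CPM on ACP and to 11.1 and 10.8 CPM on plastic. The quasi-likelihood test of edgeR, with Benjamini-Hochberg adjustment and a threshold of 0.05, called 12.6% of the 14656 genes tested, 6.74% higher and 5.85% lower on ACP. The median change over all tested genes was 0.02.

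The plastic control libraries were close to each other and the ACP control libraries were not. Among genes at 5 CPM or more, 251 of 10609 differed over 2-fold between the ACP replicates, and 1 of 10653 between the plastic replicates. Without plastic control replicate 1 or without replicate 2 no gene was called (0 at adjusted p below 0.05, with 2538 and 2836 at unadjusted p below 0.05), so that each call of ACP against plastic in control medium given below was lost without either of these libraries. Without ACP control replicate 1 there were 280 calls and without replicate 2 there were 2385. Calls that were also lost without ACP control replicate 1, where no value is given below, are those of ACACA, CALM2, CCNE2, COL1A1, CTNND1, CYP1B1, EPCAM, FOXA1, HYOU1, ITPR1, JUP, KLK4, NEAT1, PCK2, PSMB3, RPS21, RUNX2, SLC45A3, TLN1, TNC and ZBTB16. Those of ACACA, EPCAM, IFIT3, NEAT1, RUNX2, SLC45A3 and ZBTB16 were lost without ACP control replicate 2. These lists cover only genes taken by the naming rule, which is given with the processing. Genes chosen outside that rule were not followed one by one in these fits, and their calls may be lost there too. Ranges of log2 change given below as "without 1 library" cover these 4 fits. Libraries of both groups failed to overlap for 67% of all tested genes, with ACP higher for 34.6% and lower for 32.5%. Separation of the groups for a single gene is therefore common here. It held for 987 of the 988 higher calls and for all 857 lower calls, so it adds nothing to a call.

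**Figure D1:**
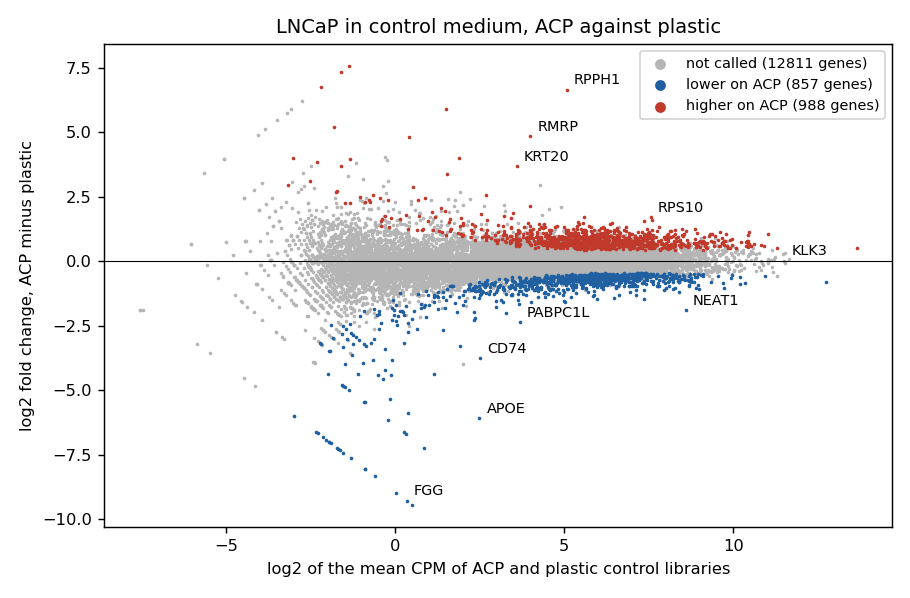
Log2 fold change of ACP over plastic (vertical) against the log2 mean CPM of the 4 libraries (horizontal) for each tested LNCaP gene, coloured by the call at adjusted p below 0.05. Called genes lie on both sides of 0 (988 higher, 857 lower), and the far negative points at low CPM, FGG among them, are fitted values of genes with no or few reads on ACP.

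Among well-expressed genes whose libraries did not overlap, those with the smallest p had close replicates. PKD1, the polycystin 1 gene, was at 74.6 and 99.2 CPM on ACP and at 233 and 246 CPM on plastic, a fall of log2 -1.46 ± 0.16 (adjusted p 0.00833). SKP1, a subunit of SCF ubiquitin ligases, was at 490 and 382 CPM on ACP and at 183 and 191 CPM on plastic (log2 1.22 ± 0.15, adjusted p 0.00833). Separation of the ACP libraries from the plastic libraries was a condition for naming these genes. DBI, which encodes the acyl-CoA binding protein, was at 363 and 217 CPM on ACP and at 95.5 and 96.9 CPM on plastic (log2 1.59 ± 0.21, adjusted p 0.00833). FAM129A, a stress-responsive gene also called NIBAN1, was at 27.7 and 38.8 CPM on ACP and at 89.3 and 95.5 CPM on plastic (log2 -1.47 ± 0.19, adjusted p 0.00833). ITGAE, the integrin alpha E gene, was at 16.1 and 12.4 CPM on ACP and at 4.30 and 4.10 CPM on plastic (log2 1.76 ± 0.21, adjusted p 0.00833). None of the 8 genes with the smallest p differed over 2-fold between the ACP replicates, which a choice by small p favours. All 8 changed in the same direction on ACP in stripped serum, where 3 were called. There 50.7% of all genes tested had a positive change and 49.2% a negative one, with 4.32% called higher and 1.8% called lower.

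Genes for the protein-making and energy-making machinery rose together. Of 76 cytosolic ribosomal protein genes 49 were higher and 0 lower, with a median change of 0.65 beside 0.02 for all genes tested and a background of 6.74% called higher. Of 73 nuclear-encoded genes of the respiratory chain 57 were higher and 0 lower (median 0.78). RPS10, a protein of the small ribosomal subunit with close pseudogene copies, was at 355 and 221 CPM on ACP and at 83.1 and 91.6 CPM on plastic (log2 1.72 ± 0.20, adjusted p 0.00833). RPS21 was at 598 and 411 CPM on ACP and at 189 and 234 CPM on plastic (log2 1.25 ± 0.21, adjusted p 0.0101). Both ACP libraries were above both plastic libraries, with replicate 1 the higher. Members that did not pass included RPL3, at 2886 and 2859 CPM on ACP and at 2952 and 3125 CPM on plastic (log2 -0.08, adjusted p 0.713). RPL4 did not pass either (log2 0.17, adjusted p 0.394).

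All respiratory complexes had called members. NDUFA4, now assigned to complex IV, was at 326 and 266 CPM on ACP and at 122 and 144 CPM on plastic (log2 1.16 ± 0.15, adjusted p 0.00833). NDUFB3, of complex I, was at 72.6 and 53.9 CPM on ACP and at 24.7 and 29 CPM on plastic (log2 1.24 ± 0.17, adjusted p 0.00833). UQCRQ, of complex III, was at 298 and 246 CPM on ACP and at 109 and 125 CPM on plastic (log2 1.22 ± 0.19, adjusted p 0.00833). Their ACP libraries lay above their plastic libraries. The catalytic subunits SDHA (log2 -0.02) and NDUFV1 (log2 0.01) did not pass. On ACP in stripped serum, a comparison of 4 other libraries, 3 ribosomal protein genes and 11 respiratory chain genes were called higher, beside 4.32% of all genes (medians 0.18 and 0.34). No member of either list passed the test of the difference between the media. In the plastic control libraries 31 of the 76 and 54 of the 73 were below every other LNCaP library, beside 6.99% of all genes tested. The median transcript was 671 bases long in the ribosomal list and 628.25 in the respiratory chain list, against 1063 for all genes tested. Without ACP control replicate 1 the lists had 7 and 10 higher calls (medians 0.53 and 0.54), and without replicate 2 they had 49 and 53. In the fit of all 34 libraries they had 5 and 15 (medians 0.54 and 0.67).

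**Figure D2:**
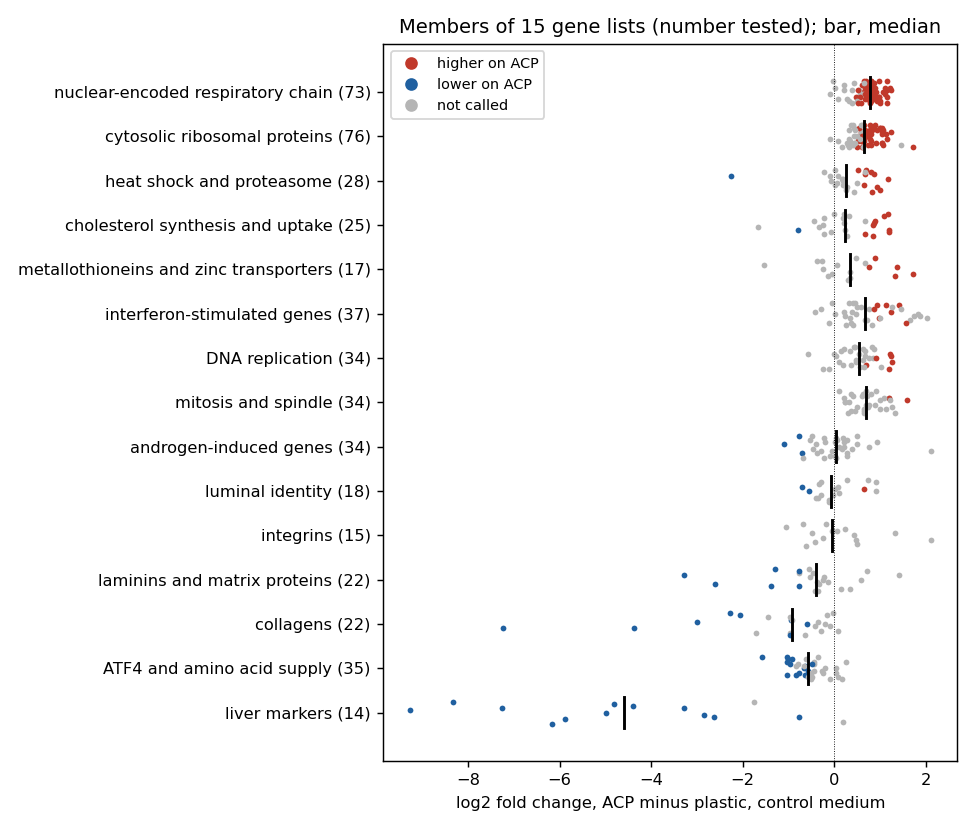
Log2 fold change of ACP over plastic for each tested member of 15 gene lists, with the number tested in brackets and a bar at the median. Respiratory chain and ribosomal protein genes sit to the right of 0 (medians 0.78 and 0.65), ATF4, collagen and liver genes to the left (medians -0.57, -0.93 and -4.60), and integrins and androgen-induced genes around it.

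The change in expression went with the base composition of the transcripts. Over 5 equal groups of genes ordered by GC share, the median log2 change was 0.31, 0.17, -0.01, -0.16 and -0.28 from the lowest GC share to the highest. Genes called higher had a median GC share of 45.4% and genes called lower one of 58.3%. The median transcript was 803 bases long for genes called higher, 1114.5 for genes called lower. With offsets that remove these trends, an alternative chosen after seeing the data, 641 of 925 higher calls and 546 of 820 lower calls with a known transcript remained. Ribosomal proteins then had 47 higher and 0 lower. For the respiratory chain list as a whole this check is void, since only 58 of its 73 genes had a known transcript. Of those 58, 40 were higher and 0 lower.

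**Figure D3:**
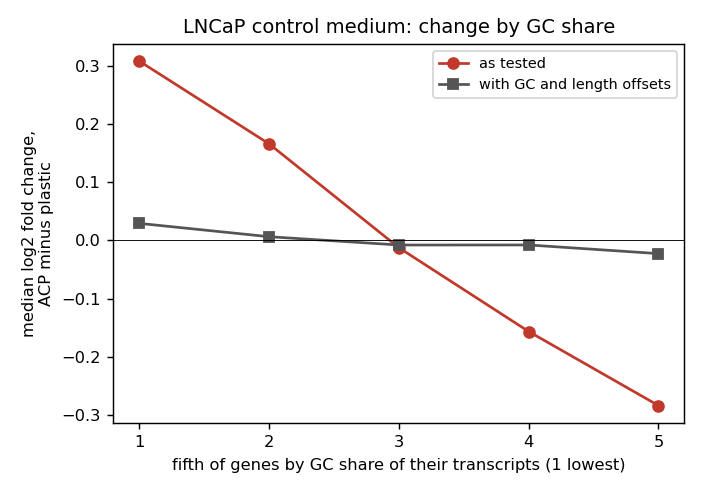
Median log2 change of ACP over plastic in 5 equal groups of genes ordered by the GC share of their transcripts, as tested (circles) and with GC and length offsets (squares). The medians as tested run from 0.31 to -0.28, and with offsets they stay between 0.03 and -0.02.

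Proteasome subunits were among the genes that rose. The counts stand beside 6.74% of all genes tested called higher and 5.85% called lower. Of 28 heat shock and proteasome genes 10 were higher and 1 lower (median 0.27), against 3 and 1 in the fit of all 34 libraries and 2 and 0 without ACP control replicate 1. PSMA3, an alpha subunit of the core particle, was at 171 and 145 CPM on ACP and at 66.5 and 73.0 CPM on plastic (log2 1.18 ± 0.17, adjusted p 0.00833). PSMB3, a beta subunit, was at 236 and 164 CPM on ACP and at 98.3 and 102 CPM on plastic (log2 0.99 ± 0.20, adjusted p 0.0150). The member that fell was HSPA1A, the inducible HSP70, at 0.36 and 0.28 CPM on ACP and at 1.34 and 1.72 CPM on plastic (log2 -2.26 ± 0.53, adjusted p 0.0229). All its values were low, and its call was lost without any 1 of the 4 libraries (log2 -2.48 to -2.07). The constitutive HSPA8 rose by log2 0.51 (3065 and 2881 CPM on ACP, 1934 and 2242 CPM on plastic, adjusted p 0.0285).

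Genes of amino acid supply under ATF4, the transcription factor of the integrated stress response, were lower on ACP. Of 35 members 14 were lower and 0 higher (median -0.57), beside 5.85% of all genes called lower. SLC7A5, the large neutral amino acid transporter LAT1, was at 12.7 and 20.0 CPM on ACP and at 45.3 and 52.0 CPM on plastic (log2 -1.57 ± 0.22, adjusted p 0.00833). TRIB3, a pseudokinase that feeds back on ATF4, was at 179 and 226 CPM on ACP and at 451 and 383 CPM on plastic (log2 -1.04 ± 0.17, adjusted p 0.00837). PCK2, mitochondrial phosphoenolpyruvate carboxykinase, was at 246 and 383 CPM on ACP and at 647 and 636 CPM on plastic (log2 -1.03 ± 0.20, adjusted p 0.0130). Every ACP library lay below every plastic library for these genes (32.5% of all tested genes). The fall spanned alanyl-tRNA synthetase (AARS, log2 -1.03 ± 0.15, adjusted p 0.00833), the stress sensor SESN2 (log2 -1.01 ± 0.18, adjusted p 0.0113) and the arginine transporter SLC7A1 (log2 -0.83, adjusted p 0.00833). DDIT3, the stress factor CHOP, fell by 0.77 on the log2 scale (adjusted p 0.0260).

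Plastic control stood above every other LNCaP library for 26 of these 35 genes, beside 12.4% of all genes tested. TRIB3 was at 87.3 and 79.4 CPM on plastic in stripped serum and at 72.4 and 63.6 CPM on ACP in stripped serum. There the list had 3 lower calls, beside 1.8% of all genes, and a median of -0.23, and no member passed the test of the difference between media. The lower calls numbered 16 with GC and length offsets, 4 without ACP control replicate 1 and 15 without replicate 2. In the fit of all 34 libraries, which gave 2 lower calls for LNCaP, no member was called in RWPE or VCaP (medians -0.67, -0.14 and -0.11), and no member passed the test of the difference between lines. Of 28 genes for folding in the endoplasmic reticulum, the neighbouring stress program, 2 were lower and 1 higher (median 0.03). Those are 7.14% and 3.57%, beside 5.85% and 6.74% of all genes tested. HYOU1, an ER chaperone, was at 302 and 332 CPM on ACP and at 570 and 522 CPM on plastic (log2 -0.79 ± 0.14, adjusted p 0.0113).

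Some cholesterol synthesis genes rose and the gene of their regulator fell. Among all genes tested 6.74% were called higher and 5.85% lower. Of 25 genes of sterol synthesis and uptake 9 were higher and 1 lower (median 0.23), against 4 and 1 in the fit of all 34 libraries and 1 and 0 without ACP control replicate 1. MSMO1, a sterol demethylating oxidase, was at 156 and 112 CPM on ACP and at 57.5 and 60.2 CPM on plastic (log2 1.19 ± 0.23, adjusted p 0.0132). EBP, the sterol isomerase, was at 141 and 83.8 CPM on ACP and at 49.2 and 49.5 CPM on plastic (log2 1.19 ± 0.21, adjusted p 0.0111, and log2 0.74 without ACP control replicate 1). ACAT2, a cytosolic thiolase at the entry to the pathway, was at 160 and 84.1 CPM on ACP and at 53.2 and 55.5 CPM on plastic (log2 1.17 ± 0.25, adjusted p 0.0167). Without ACP control replicate 1 neither ACAT2 (log2 0.61) nor MSMO1 (log2 0.91) passed. The rise covered steps from IDI1 (log2 1.09) and FDPS (log2 0.84) to squalene synthase FDFT1 (log2 0.68).

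The member that fell was SREBF2, the gene of SREBP2, at 297 and 370 CPM on ACP and at 562 and 589 CPM on plastic (log2 -0.79 ± 0.15, adjusted p 0.0119), a call lost without ACP control replicate 1 (log2 -0.66). On ACP in stripped serum 7 members were higher and 0 lower, beside 4.32% of all genes tested called higher. Of 20 genes of fatty acid synthesis 1 was lower and 0 higher. It was ACACA, the rate-limiting carboxylase, at 398 and 371 CPM on ACP and at 552 and 619 CPM on plastic (log2 -0.61 ± 0.15, adjusted p 0.0295). Among lysosome and autophagy genes 5 of 29 were higher and 1 lower (17.2% and 3.45%, beside 6.74% and 5.85% of all genes tested). NPC2, which carries cholesterol out of lysosomes, was at 60.8 and 59.4 CPM on ACP and at 30.8 and 33.4 CPM on plastic (log2 0.90 ± 0.14, adjusted p 0.00833).

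Metallothioneins, small cysteine-rich proteins that bind zinc and copper, were higher on ACP. Of 17 metallothionein and zinc transporter genes 5 were higher and 0 lower (median 0.35), beside 6.74% of all genes tested called higher. MT2A was at 78.8 and 77.9 CPM on ACP and at 32.3 and 30.1 CPM on plastic (log2 1.33 ± 0.25, adjusted p 0.0120). MT1X was at 43.6 and 35.2 CPM on ACP and at 19.1 and 11.2 CPM on plastic (log2 1.38 ± 0.27, adjusted p 0.0142). MT1F was at 4.00 and 2.87 CPM on ACP and at 1.13 and 0.95 CPM on plastic (log2 1.72 ± 0.37, adjusted p 0.0177). The ACP and plastic libraries did not overlap for any of these genes. Metallothioneins are near-identical copies of each other, and reads may be split among them. No member of the list was called without ACP control replicate 1, though the change in MT2A stayed between log2 1.28 and 1.38 without 1 library. The zinc importers SLC39A8 (log2 0.89, adjusted p 0.0183) and SLC39A10 (log2 0.76, adjusted p 0.0346) also rose. In stripped serum no member was called, and MT2A was at 54.4 and 48.8 CPM on ACP and at 58.4 and 46.3 CPM on plastic.

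Metallothionein genes are switched on through metal response elements, which the factor MTF1 binds. The RefSeq promoter table (GRCh38.p14) matched 3 of the 9 metallothioneins of the list. In the 250 bases before the start, TGCACNC, the A spelling of the element's core, was found on either strand in 3 of the 3 and in 9.87% of all 35116 promoters. TGCGCNC, the G spelling, was found in 3 of the 3 and in 16.8% of all promoters. The 2 spellings differ at 1 base and are counted separately. The stretches with most matches are shown for both called genes with a match in the table, with the matches of either strand in capitals. They lie at chr16:56608431-56608550 and chr16:56682320-56682439, both on the plus strand.
MT2A: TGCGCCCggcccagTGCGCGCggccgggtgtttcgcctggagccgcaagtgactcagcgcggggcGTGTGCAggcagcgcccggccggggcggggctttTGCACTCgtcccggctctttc
MT1X: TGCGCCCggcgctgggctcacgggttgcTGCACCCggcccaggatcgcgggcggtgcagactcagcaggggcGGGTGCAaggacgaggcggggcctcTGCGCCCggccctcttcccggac
Each stretch holds 4 matches. They show that these letters are present near the start, and nothing on binding.

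Some interferon-stimulated genes rose, at low levels. Of 37 members 7 were higher and 0 lower (median 0.67, 33 positive), beside 6.74% of all genes tested called higher. In the fit of all 34 libraries none of 38 was called (median 0.59). OAS1, which senses double-stranded RNA, was at 4.47 and 7.16 CPM on ACP and at 2.45 and 1.88 CPM on plastic (log2 1.42 ± 0.28, adjusted p 0.0132). IFIT3 was at 2.22 and 3.66 CPM on ACP and at 0.92 and 1.06 CPM on plastic (log2 1.57 ± 0.36, adjusted p 0.0214). IFIT1, which binds foreign RNA, was at 3.40 and 3.82 CPM on ACP and at 1.68 and 1.58 CPM on plastic (log2 1.14 ± 0.27, adjusted p 0.0227). ACP replicate 2 was the higher ACP library in all of these, and neither overlapped plastic. ISG15, a ubiquitin-like protein, rose by log2 0.99 ± 0.17 (adjusted p 0.0111). The list had 9 higher calls without ACP control replicate 1, and 4 higher and 1 lower without replicate 2, where the median was 0.33. In stripped serum 4 members were higher on ACP (median 0.53), beside 4.32% of all genes tested. OAS1 was among them (log2 1.73, adjusted p 0.00823). B2M, the light chain of MHC class I, was at 403 and 565 CPM on ACP and at 238 and 258 CPM on plastic (log2 0.97 ± 0.17, adjusted p 0.0113).

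The core of the interferon-stimulated response element, which has 10 letters, was searched in the same RefSeq promoters on both strands. It was found in 17 of the 29 members matched and in 6 of the 7 called, beside 3.02% of all promoters. The stretches of IFIT3 (chr10:89327841-89327960) and IFIT1 (chr10:89392503-89392622), both on the plus strand, show the element as its reverse complement, with the matches in capitals.
IFIT3: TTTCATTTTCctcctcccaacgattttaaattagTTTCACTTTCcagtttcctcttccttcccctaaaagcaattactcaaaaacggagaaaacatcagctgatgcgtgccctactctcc
IFIT1: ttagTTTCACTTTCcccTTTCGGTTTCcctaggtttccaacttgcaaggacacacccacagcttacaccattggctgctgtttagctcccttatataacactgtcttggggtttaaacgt
Each stretch holds 2 matches. For ATF4 targets the core TGATGNAA was found in 3 of 24 matched members and in 0 of the 11 called ones in the table, beside 3.14% of all promoters, which says only that these letters are not in this window.

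Most genes of the cell cycle lists had a positive change and few were called, with ACP replicate 1 the higher. Of 34 DNA replication genes 6 were higher and 0 lower (median 0.55, 31 positive). Of 34 mitosis and spindle genes 2 were higher and 0 lower (median 0.70, 34 positive). Among all 14656 genes tested 7606 were positive and 6.74% were called higher, so that the number of mitosis calls is near the background. PCNA, the sliding clamp of DNA polymerase, was at 314 and 179 CPM on ACP and at 91.5 and 117 CPM on plastic (log2 1.24 ± 0.28, adjusted p 0.0211). CDK1, the mitotic kinase, was at 305 and 192 CPM on ACP and at 72.5 and 93.3 CPM on plastic (log2 1.58 ± 0.40, adjusted p 0.0281). CCNE2, cyclin E2, was at 61.3 and 30.4 CPM on ACP and at 15.1 and 21.4 CPM on plastic (log2 1.33 ± 0.37, adjusted p 0.0387). The groups did not overlap, but the ACP replicates differed by more than the plastic ones. Without ACP control replicate 1 no gene of these lists was called (medians 0.29 and 0.35, PCNA log2 0.76, CDK1 log2 1.19), and without replicate 2 there were 14 and 9 higher calls. In stripped serum the medians were 0.12 and -0.07, with 1 and 0 calls. The integrin list, which does not hold ITGAE, had no call in 15 genes, and neither had 31 immediate early and MAPK feedback genes and 27 TGF-beta and BMP genes.

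Calls among matrix genes were all lower on ACP, and most members were not called. Of 22 collagen genes 8 were lower and 0 higher (36.4% lower, median -0.93). Of 22 laminin and other matrix protein genes 6 were lower and 0 higher (27.3% lower, median -0.41). Among all genes tested 5.85% were called lower. LAMA5, a laminin chain of epithelial basement membranes, was at 46.9 and 67.7 CPM on ACP and at 132 and 148 CPM on plastic (log2 -1.29 ± 0.19, adjusted p 0.00833). HSPG2, the basement membrane proteoglycan perlecan, was at 6.76 and 13.7 CPM on ACP and at 24.6 and 29.2 CPM on plastic (log2 -1.39 ± 0.29, adjusted p 0.0155). COL6A1, a chain of microfibrillar collagen VI, was at 64.3 and 118 CPM on ACP and at 174 and 180 CPM on plastic (log2 -0.96 ± 0.24, adjusted p 0.0285). All ACP values were below all plastic values, as for 32.5% of all genes tested. Without ACP control replicate 1 the HSPG2 change was log2 -0.99 and the COL6A1 change log2 -0.60, neither of which passed, and the lists kept 1 lower call each, with 1 higher call among the matrix proteins. COL7A1, the anchoring fibril collagen, was at 2.41 and 1.06 CPM on ACP and at 7.82 and 8.96 CPM on plastic (log2 -2.27 ± 0.48, adjusted p 0.0169, and -3.00 to -1.81 without 1 library).

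Fibrillar collagen COL1A1 was at 9.41 and 11.9 CPM on ACP and at 22.4 and 18.4 CPM on plastic (log2 -0.93 ± 0.19, adjusted p 0.0159), and it was also lower in stripped serum (log2 -0.94, adjusted p 0.0198). It was 1 of 2 calls among 15 tested genes of bone matrix and turnover. The other was RUNX2, a master regulator of osteoblasts, at 16.5 and 21.6 CPM on ACP and at 8.93 and 11.2 CPM on plastic (log2 0.92 ± 0.25, adjusted p 0.0378), which also rose in stripped serum (log2 1.79, adjusted p 0.00575). LAMA5 fell there too (log2 -0.87, adjusted p 0.0256). Collagens had 1 lower call in stripped serum (median -0.42) and matrix proteins 3 lower and 2 higher (median -0.55). Among all genes tested 1.8% were called lower there and 4.32% higher. FN1, fibronectin, was not called in control medium, at 401 and 928 CPM on ACP and at 779 and 912 CPM on plastic (log2 -0.35, adjusted p 0.477). It rose on ACP in stripped serum (log2 2.25, adjusted p 0.00429). For 8 of the 22 collagens the plastic control libraries stood above every other LNCaP library, and for 2 they did so in all 4 lines. TNC, tenascin C, was at 0.28 and 0.59 CPM on ACP and at 2.81 and 2.51 CPM on plastic (log2 -2.61 ± 0.49, adjusted p 0.0126).

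Adhesion and cytoskeleton genes had calls in both directions, near the shares of all genes. Of 41 focal adhesion and actin genes 4 were higher and 4 lower (median -0.14), which is 9.76% each way beside 6.74% and 5.85% of all genes tested. MYL6, a light chain of non-muscle myosin, was at 718 and 608 CPM on ACP and at 278 and 277 CPM on plastic (log2 1.26 ± 0.20, adjusted p 0.00843), whereas MYH9, a heavy chain of the same motor, was at 388 and 553 CPM on ACP and at 789 and 837 CPM on plastic (log2 -0.79 ± 0.23, adjusted p 0.0489). TLN1, talin, which links integrins to actin, was at 114 and 126 CPM on ACP and at 220 and 218 CPM on plastic (log2 -0.87 ± 0.18, adjusted p 0.0170). With GC and length offsets the MYH9 call was lost (log2 -0.63), as it was without ACP control replicate 1 (log2 -0.58). Among cell junction genes 3 of 22 were lower and 1 higher (13.6% and 4.55%, beside 5.85% and 6.74% of all genes tested). CTNND1, p120 catenin, was at 30.1 and 34.8 CPM on ACP and at 67.8 and 67.0 CPM on plastic (log2 -1.06 ± 0.18, adjusted p 0.00964). JUP, plakoglobin, was at 275 and 341 CPM on ACP and at 533 and 498 CPM on plastic (log2 -0.74 ± 0.17, adjusted p 0.0206). EPCAM rose (log2 0.65 ± 0.17, adjusted p 0.0295).

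Genes that handle the ions of the coating showed scattered calls. Of 35 calcium handling genes 2 were higher and 5 lower (median -0.17), and of 11 phosphate and vitamin D genes 1 was lower and 0 higher (median -0.07). The calcium calls are 5.71% higher and 14.3% lower, beside 6.74% and 5.85% of all genes tested. CALM2, calmodulin, was at 414 and 331 CPM on ACP and at 186 and 202 CPM on plastic (log2 0.94 ± 0.19, adjusted p 0.0139). ITPR1, a calcium release channel, was at 15.8 and 21.1 CPM on ACP and at 31.2 and 37.0 CPM on plastic (log2 -0.89 ± 0.18, adjusted p 0.0144). STC2, a secreted regulator of calcium and phosphate that is also an ATF4 target, was at 122 and 164 CPM on ACP and at 283 and 278 CPM on plastic (log2 -0.97 ± 0.29, adjusted p 0.0477). The sodium-phosphate cotransporter SLC34A3 was at 4.63 and 5.86 CPM on ACP and at 9.99 and 9.76 CPM on plastic (log2 -0.91 ± 0.25, adjusted p 0.0408). The STC2 and SLC34A3 calls were lost with GC and length offsets (log2 -0.93 and -0.53) and without ACP control replicate 1 (log2 -0.80 and -0.77).

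Few androgen-regulated genes passed the test between the surfaces in control medium. Of 34 androgen-induced genes 0 were higher and 3 lower (median 0.04), which is 8.82% lower beside 5.85% of all genes tested. KLK3, which encodes prostate-specific antigen, was at 2369 and 3496 CPM on ACP and at 2886 and 2887 CPM on plastic (log2 0.02 ± 0.17, adjusted p 0.946, and -0.30 to 0.26 without 1 library). KLK2 was at 91.1 and 103 CPM on ACP and at 91.1 and 110 CPM on plastic (log2 -0.05 ± 0.23, adjusted p 0.903). The 2 surfaces overlapped for these kallikreins. TMPRSS2, a membrane protease, was at 546 and 1039 CPM on ACP and at 1066 and 1037 CPM on plastic (log2 -0.41 ± 0.23, adjusted p 0.251). Without ACP control replicate 2 the TMPRSS2 change was log2 -0.96 and passed, and without replicate 1 it was log2 -0.04. FKBP5, a cochaperone of steroid receptors, was at 240 and 183 CPM on ACP and at 187 and 162 CPM on plastic (log2 0.28 ± 0.23, adjusted p 0.429).

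The 3 members that fell were KLK4, SLC45A3 and ZBTB16. KLK4 was at 106 and 139 CPM on ACP and at 206 and 211 CPM on plastic (log2 -0.77 ± 0.19, adjusted p 0.0257). SLC45A3, a solute carrier known as prostein, was at 305 and 260 CPM on ACP and at 514 and 406 CPM on plastic (log2 -0.70 ± 0.16, adjusted p 0.0220), a call lost with GC and length offsets (log2 -0.35). ZBTB16, a transcription factor also induced by other steroids, was at 15 and 15.7 CPM on ACP and at 30.9 and 34.6 CPM on plastic (log2 -1.09 ± 0.31, adjusted p 0.0415). Among 11 androgen-repressed genes 2 were higher and 0 lower (median 0.90), which is 18.2% higher beside 6.74% of all genes tested. UGT2B17, which glucuronidates androgens, was at 420 and 218 CPM on ACP and at 132 and 123 CPM on plastic (log2 1.32 ± 0.27, adjusted p 0.0151). Its near copy UGT2B15, with which reads may be shared, was at 134 and 59.8 CPM on ACP and at 42.5 and 36.8 CPM on plastic (log2 1.29 ± 0.35, adjusted p 0.0369). Neither passed without ACP control replicate 1 (UGT2B17 log2 0.75, UGT2B15 log2 0.57). FOXA1, a pioneer factor of luminal cells, was at 406 and 478 CPM on ACP and at 679 and 615 CPM on plastic (log2 -0.55 ± 0.13, adjusted p 0.0259).

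For 45 genes, 0.307% of those tested, the surface effect in control medium differed by test from that in stripped serum. Of these, 44 had the lower effect in control medium. The plastic libraries in stripped serum carry the day 4 label, as the ACP libraries do. Only the control medium side holds the plastic control libraries, so the medium and any difference in those libraries cannot be told apart. Within the androgen-induced list of 34 genes 11 were higher on ACP in stripped serum and 0 lower (median 0.46), beside 4.32% of all genes called higher. Of the same list 6 passed the test of the difference. KLK3 was at 1664 and 1937 CPM on ACP and at 136.5 and 135.7 CPM on plastic in stripped serum (log2 3.73 ± 0.19, adjusted p 8.68e-06). KLK4 was at 188 and 163 CPM on ACP and at 46.6 and 38.8 CPM on plastic there (log2 2.03 ± 0.19, adjusted p 3.06e-04). Both ACP libraries lay above both plastic libraries for both genes. UGT2B17 went from 394 and 583 CPM on plastic to 1118 and 1136 CPM on ACP in stripped serum (log2 1.21, adjusted p 0.0267).

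**Figure D4:**
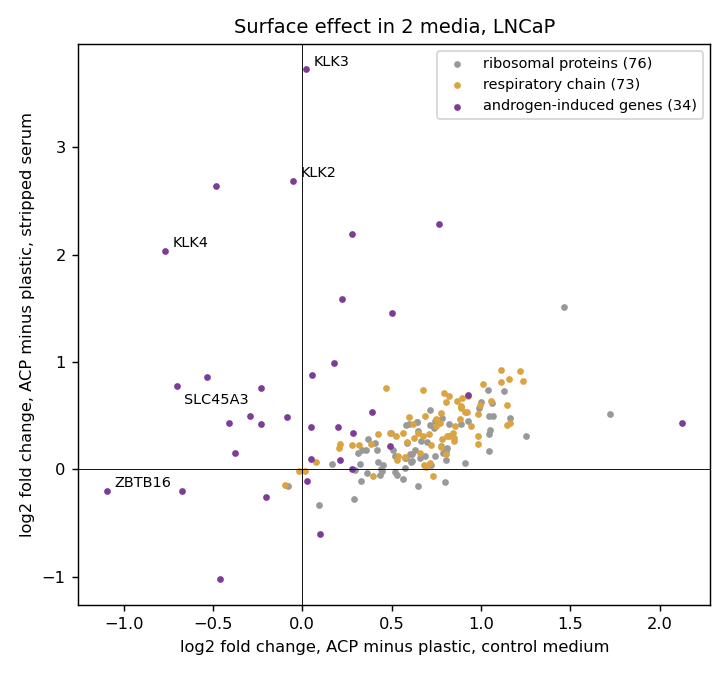
Log2 fold change of ACP over plastic in stripped serum (vertical) against the same in control medium (horizontal) for ribosomal protein, respiratory chain and androgen-induced genes of LNCaP, each point a gene. KLK3 lies at 0.02 in control medium and 3.73 in stripped serum, while most ribosomal and respiratory chain genes lie right of 0 in control medium.

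The 4 libraries of the stripped serum comparison are separate from those of control medium. Of the 988 genes higher on ACP in control medium 941 had a positive change in stripped serum, beside 50.7% of all genes tested. Of the same 988, 230 were called higher there, beside 4.32% of all genes tested. Those 230 are 23.3% of the control calls and 36.3% of the 633 stripped serum calls. Of the 857 lower genes 759 had a negative change, beside 49.2% of all genes tested. Of the same 857, 140 were called lower, beside 1.8% of all genes tested, and 9 were called higher. Those 140 are 16.3% of the control calls and 53.0% of 264 stripped serum calls. The trend with GC share was present there as well, with medians from 0.24 in the lowest group to -0.28 in the highest, and its part in this sharing was not tested.

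**Figure D5:**
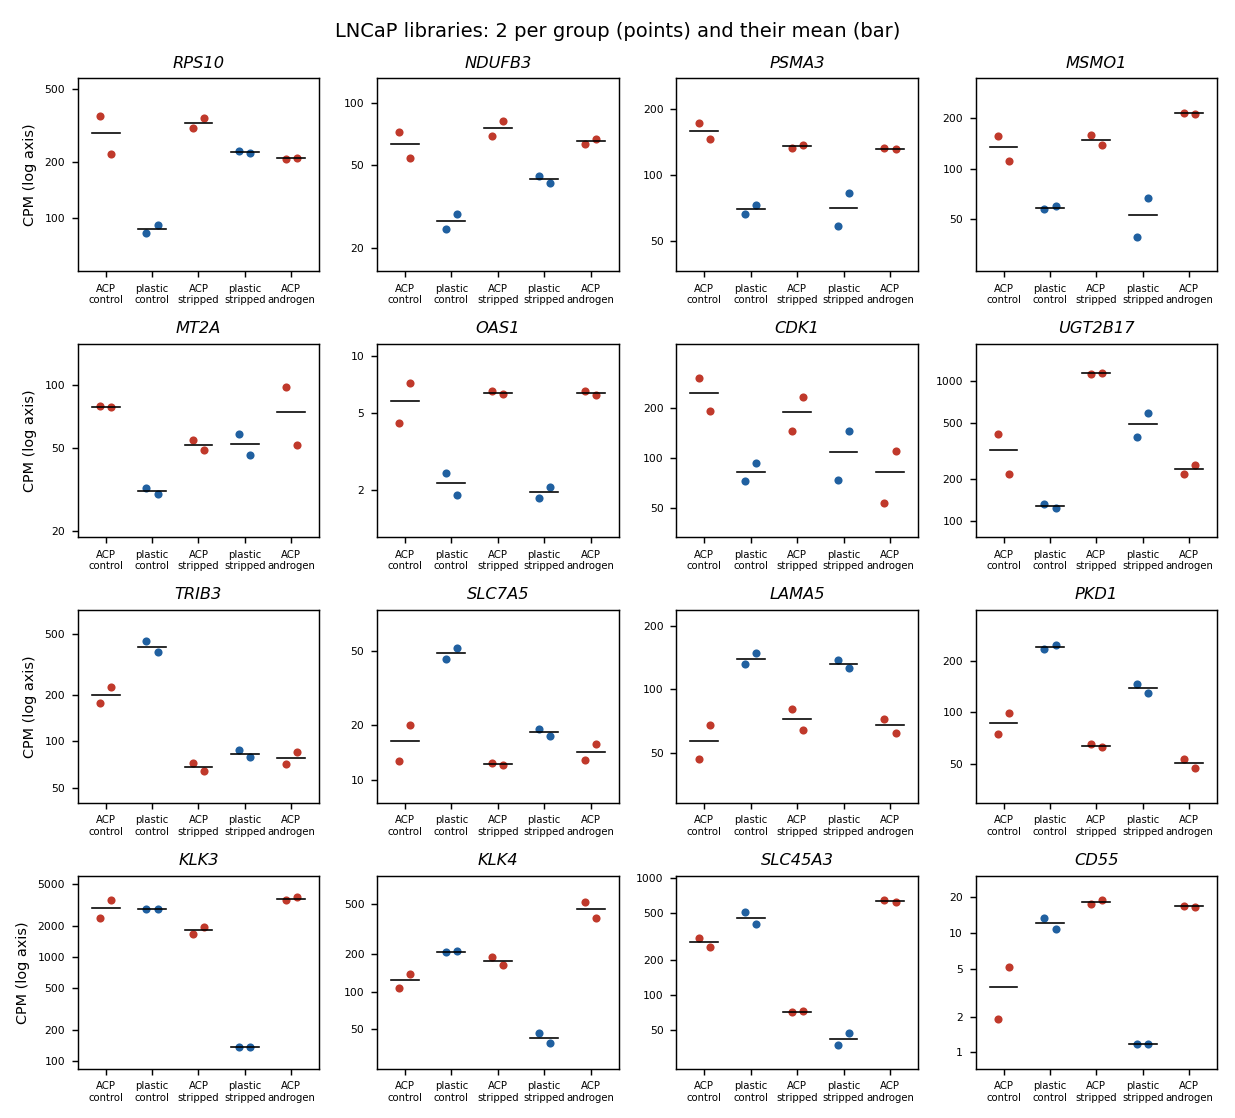
CPM (log axis) of 16 named genes in the 10 LNCaP libraries, 2 points per group with a bar at their mean, red for ACP and blue for plastic. Plastic control is below all other groups for RPS10, NDUFB3 and MT2A and above them for TRIB3, SLC7A5 and PKD1, and KLK3 is high on both surfaces in control medium and low on plastic in stripped serum.

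The largest rises among genes past the threshold were uneven between the ACP replicates. Of the 12 largest rises 9 differed over 2-fold between these replicates, and of the 12 largest falls 5 did. RPPH1, the RNA of ribonuclease P, rose most of the 12, at 126 and 7.56 CPM on ACP and at 0.30 and 1.02 CPM on plastic (log2 6.67 ± 1.41, adjusted p 0.0168), and without ACP control replicate 1 it changed by log2 3.51 and did not pass. MMP12, a macrophage elastase, came next with 4 and 279 reads on ACP and 6 and 2 reads on plastic (log2 5.93 ± 1.66, adjusted p 0.0415), and without replicate 2 it changed by log2 0.81 and did not pass. RMRP, the RNA of a mitochondrial and pre-rRNA processing ribonuclease, was at 54.4 and 7.01 CPM on ACP and at 1.32 and 0.79 CPM on plastic (log2 4.85 ± 0.85, adjusted p 0.0106, and log2 2.70 without ACP control replicate 1). Of 8 tested small noncoding genes, whose RNAs lack a poly(A) tail, 4 were higher and 0 lower. RBMXL2, a testis RNA-binding protein gene, was at 11 and 2.75 CPM on ACP and at 0.53 and 0.32 CPM on plastic (log2 4.00 ± 0.60, adjusted p 0.00833, and log2 2.66 without replicate 1). KRT20, an intestinal and urothelial keratin, was at 2.65 and 42.1 CPM on ACP and at 1.70 and 1.74 CPM on plastic (log2 3.70 ± 1.03, adjusted p 0.0409), and without ACP control replicate 2 it changed by log2 0.60 and did not pass. RARRES3, a retinoid-responsive gene, behaved alike, at 3.05 and 18.8 CPM on ACP and at 1.6 and 2.08 CPM on plastic (log2 2.57 ± 0.66, adjusted p 0.0299, and log2 0.71 without replicate 2, which did not pass).

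TNFSF10 was closer between the ACP replicates. TNFSF10, the death ligand TRAIL, was at 8.15 and 9.88 CPM on ACP and at 1.85 and 3.21 CPM on plastic (log2 1.83 ± 0.48, adjusted p 0.0331), a call lost without either ACP library (log2 1.49 to 2.28 without 1 library), and it rose in stripped serum as well (log2 2.32, adjusted p 0.0266). BIK, a BH3-only killer protein with ACP replicates over 2-fold apart, was at 11.2 and 23.7 CPM on ACP and at 4.90 and 4.53 CPM on plastic (log2 1.89 ± 0.30, adjusted p 0.00834, and log2 1.22 without ACP control replicate 2). CYP11A1, the enzyme that starts steroid synthesis from cholesterol, was at 40.0 and 11 CPM on ACP and at 6.01 and 5.64 CPM on plastic (log2 2.13 ± 0.55, adjusted p 0.0304). CYP11A1 changed by log2 0.89 without ACP control replicate 1 and did not pass.

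Several of the largest falls were even. PABPC1L, a poly(A)-binding protein of germ cells, was at 5.14 and 3.23 CPM on ACP and at 18.3 and 24.7 CPM on plastic (log2 -2.36 ± 0.35, adjusted p 0.00833). EME2, a subunit of a structure-specific endonuclease, was at 4.07 and 3.62 CPM on ACP and at 15.2 and 16 CPM on plastic (log2 -2.02 ± 0.35, adjusted p 0.0104). NEAT1, the long RNA that builds paraspeckles, was at 188 and 139 CPM on ACP and at 532 and 682 CPM on plastic (log2 -1.89 ± 0.45, adjusted p 0.0247). NEAT1 varied elsewhere, at 583 and 338 CPM on ACP in stripped serum and at 668 and 192 CPM on ACP with androgen. CD55, which shields cells from complement, was at 1.90 and 5.2 CPM on ACP and at 13.5 and 10.8 CPM on plastic (log2 -1.77 ± 0.35, adjusted p 0.0132, and log2 -2.69 without ACP control replicate 2).

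Transcripts of liver were higher in the plastic control libraries, at low levels. Of 14 tested liver markers 12 were lower on ACP and 0 higher (median -4.60), against 5 of 17 with DESeq2, 4 without ACP control replicate 1 and 8 without replicate 2. Among all genes tested 5.85% were called lower. A member seen only in plastic control passed the low-count filter through those libraries and could enter the test only as a fall. FGB and FGG were such members, at 0.0345 CPM or less in every other LNCaP library. The part of the filter in the 12 falls and in the median was not tested. FGG, fibrinogen gamma, showed 0 reads in both ACP libraries and 115 and 114 reads on plastic, which is at least 42.5-fold lower on ACP when a group total of 3 counts is taken as the limit, counting error only (adjusted p 0.00833). ALB, albumin, was at 0.83 and 0.55 CPM on ACP and at 8.18 and 5.36 CPM on plastic (log2 -3.29 ± 0.50, adjusted p 0.00833). TF, transferrin, was counted in 91 and 64 reads on plastic against 1 and 0 on ACP, a ratio of 86.2 with an exact 95% counting interval of 15.3 to 3428. The 17 markers of the list summed to 15.1 and 14.8 CPM on ACP and to 48.2 and 42.2 CPM on plastic, where CPS1, of the urea cycle, was the most abundant at 18.1 and 20.7 CPM. In the plastic control libraries of all 4 lines together FGG was at 1.41 CPM or more, and in the other 26 libraries of the series at 0.0323 CPM or less. Of the 14, 12 were also lower on ACP in RWPE, beside 330 of all 14656 genes tested. In VCaP 8 of the 14 were called in either direction (median log2 -4.73), beside 60 of all genes. For 9 the plastic control libraries stood above all others of their line in all 4 lines.

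Genes that mark the plastic control libraries of all 4 lines in this way numbered 207 (1.41% of genes tested), and 113 of the 857 lower calls were among them. Below all others in all 4 lines were 37 genes (0.252%), with 29 of the 988 higher calls. CD74 was among the 207 genes, and APOE and COL7A1 were not. The part of any such library difference in the falls of APOE, CD74 and the low collagens was not tested. APOE was at 0.04 and 0.28 CPM on ACP and at 12.6 and 9.35 CPM on plastic, and reached no more than 0.45 CPM elsewhere in LNCaP. CD74, the invariant chain of MHC class II, was at 0.04 and 1.5 CPM on ACP and at 10.6 and 10.4 CPM on plastic. Without the genes that mark plastic control, collagens had 6 lower calls, liver genes 4, ATF4 genes 12, ribosomal proteins 45 higher calls and the respiratory chain 56.

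Few genes passed the test of a difference in this surface contrast between LNCaP and VCaP or RWPE. MDAPCa2a had no ACP library in control medium. At unadjusted p below 0.05 in the edgeR test, 645 genes differed from VCaP and 1625 from RWPE. Few passing genes therefore do not show that the lines respond alike. Between LNCaP and VCaP 4 of 17323 genes passed the test of the difference (0.0231%), and between LNCaP and RWPE 27 did (0.156%). With VCaP they were CPS1, MSN, VIM and CYP1B1, the first 3 named after their values were seen. CYP1B1, a hydroxylase induced through the aryl hydrocarbon receptor, was at 0.08 and 0.20 CPM on ACP and at 1.58 and 1.38 CPM on plastic in LNCaP (log2 -3.38 ± 0.58, adjusted p 0.0104). Its change was log2 -0.15 in VCaP and -0.07 in RWPE. CPS1, MSN and VIM fell in VCaP (log2 -4.30, -2.70 and -5.08), while in LNCaP their changes were log2 -0.78, -0.31 and -0.52. In this fit of all 34 libraries ribosomal protein genes had 18 higher calls in RWPE, 1 call in VCaP and 5 higher calls in LNCaP (medians 0.72, 0.24 and 0.54). Respiratory chain genes had 34 in RWPE, 0 in VCaP and 15 in LNCaP (medians 0.79, 0.29 and 0.67). Over the 14656 genes tested in LNCaP, 432 were higher in RWPE and 60 were called in VCaP. In LNCaP itself 196 of 17323 genes were higher in this fit. None of the ribosomal protein or respiratory chain genes differed from LNCaP by the test.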

How the data were processed

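Poly(A)-selected RNA of the 4 compared LNCaP libraries was read from the table of counts per gene that the authors deposited. STAR, HTSeq and the build hg19 are named in the submitters' processing notes, with versions, strand setting and filters not given in the sources used here. Reads of overlapping or antisense genes may therefore be mixed. The deposited counts cover 26336 genes, of which 14656 were tested. edgeR 4.0.16 (R 4.3.3, limma 3.58.1) was used with TMM scaling, a filter on low counts (filterByExpr, minimum count 10) and the quasi-likelihood F test on all 10 LNCaP libraries, which share one estimate of the spread (5 residual degrees of freedom). The contrast was ACP control minus plastic control, with Benjamini-Hochberg adjustment over all tested genes and a threshold of 0.05. Differences between lines came from a fit of all 34 libraries. The code was tested on simulated data.

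The compared libraries were set by their labels and the gene lists by background knowledge. Earlier results of these data were known when these and the naming rule were chosen. The naming rule took KLK3, KLK2, TMPRSS2 and FKBP5, the 12 largest rises, the 12 largest falls and the 8 smallest p among called genes at 5 CPM or more whose groups did not overlap, and up to 3 called genes per list at 1 CPM or more. The report describes a selection of the 120 genes it took, made after their values were seen. KRT8, KRT18 and HOXB13 only illustrate a marker list. AARS, SESN2, SLC7A1, DDIT3, IDI1, FDPS, FDFT1, IFIT1, ISG15, SLC39A8, SLC39A10, HSPA8, RPL3, RPL4, SDHA, NDUFV1, FN1, CPS1, MSN and VIM fall outside that rule and were chosen after their values were seen.

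The alternatives were RLE scaling, no count filter, a replicate block, fits of 4 or 34 libraries, DESeq2 1.42.0, a fold threshold and each library left out in turn. Offsets for GC share and transcript length (GENCODE 29, 90.2% of genes matched) and the count without plastic-marking genes were added after seeing the data. Promoters are from RefSeq (GRCh38.p14) and carry no coordinates of the counted build. Intervals and limits cover counting error only.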

Additional observations from a re-analysis of the deposited data

Results flagged for a closer look

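For 6 named genes the surface effect in control medium differed from that in stripped serum by a test of the difference itself (edgeR's quasi-likelihood test, Benjamini-Hochberg), and in this paragraph each value is the control effect minus the stripped serum effect on the log2 scale. KLK3 differed by -3.70 (adjusted p 1.71e-04), KLK2 by -2.74 (adjusted p 0.00469) and KLK4 by -2.80 (adjusted p 0.00116). SLC45A3 differed by -1.48 (adjusted p 0.0233). CD55 differed by -5.73 (adjusted p 9.06e-04), falling on ACP in control medium and rising there in stripped serum (log2 3.96). RBMXL2 differed by 4.6 (adjusted p 0.0370). The plastic control libraries enter only the control effect, so the medium and any difference in those libraries cannot be told apart.

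For 2 named genes the effect differed between lines by the same kind of test. CYP1B1 differed by log2 -3.33 between LNCaP and VCaP (adjusted p 0.0263) and by log2 -3.41 between LNCaP and RWPE (adjusted p 0.00973). HSPA1A differed by log2 -2.69 between LNCaP and RWPE (adjusted p 0.0310), from 9 and 7 reads on ACP and 63 and 76 reads on plastic in LNCaP.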

How the results depend on the processing

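The 1845 calls became 2933 with no count filter, 647 in the fit of all 34 libraries (196 higher and 451 lower, with the median of all genes at -0.09) and 489 at an absolute log2 change of at least 1. With single libraries left out they ranged from 0 to 2385. RLE scaling gave 1784, the fit of 4 libraries 2210, DESeq2 2627, the GC and length offsets 1793 and the count without plastic-marking genes 1703. The replicate block gave 1976. Whether same-numbered libraries were handled together is not known. The correlation of their deviations was -0.09, which with 2 libraries per group cannot decide it. The 45 genes that differed between media became 338 with no filter, 201 with DESeq2, 83 with offsets, 51 with the replicate block and 11 to 148 with single libraries left out. The 4 genes that differed from VCaP became 17 with no filter, 8 with DESeq2, 4 with the block and 0 to 20 with single libraries left out. The 27 that differed from RWPE became 123, 139, 29 and 3 to 57 in the same order. The cause of these moves was not tested.

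Of the called genes among the 120 named, 114 remained called with RLE scaling, 112 with the replicate block, 56 in the fit of all 34 libraries, 41 without ACP control replicate 1, 97 without replicate 2 and 0 without either plastic control library. No named gene that was called reversed under the alternatives run. The uncalled KLK3 and KLK2 changed sign between fits with 1 library left out (log2 -0.30 to 0.26 and -0.18 to 0.09). With 2 libraries per group, 1 library decides many calls.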

Other observations

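Among the 45 genes whose surface effect differed between media were some on no list, of which 2 are given here, chosen after their values were seen. DSCAM-AS1, a long noncoding RNA known from breast cancer, was at 0.59 and 1.81 CPM on ACP and at 0.77 and 0.61 CPM on plastic in control medium. In stripped serum DSCAM-AS1 was at 153.3 and 116.5 CPM on ACP and at 0.29 and 0.50 CPM on plastic. The effect in control medium minus that in stripped serum was log2 -7.73 ± 0.76 (SE, adjusted p 0.00132, edgeR). SMOC1, a secreted calcium-binding matrix protein, was at 0.16 and 0.47 CPM on ACP and at 1.30 and 2.24 CPM on plastic in control medium, and at 5.79 and 5.16 CPM on ACP and at 0.08 and 0.39 CPM on plastic in stripped serum. Its difference was log2 -7.28 ± 0.91 (SE, adjusted p 0.00486, edgeR).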
